A study of Mus musculus with 6 samples.

Results

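The genes described here encode the integrins, the laminins and the proteins that tie laminin networks to cells and to each other, measured by messenger RNA sequencing of whole mouse kidneys at E13.5. They were chosen by gene symbol. The set holds every integrin alpha and beta subunit gene in the deposited table whose symbol ends in its number, except Itgb2, together with the laminin alpha, beta and gamma chain genes, Nid1, Nid2, Npnt, Fn1, Hspg2, Agrn, Fras1, Frem1 and Frem2. This gave 38 of the 22394 genes in the table, and all 38 passed the filter on low values. Mutants were Foxd1Cre;Ptch1 (flox/-), which combines a Cre driven by Foxd1 with a floxed and a null Ptch1 allele. Control littermates were Ptch1 (flox/+), so the floxed allele is common to both groups. There were 3 libraries of each, made from paired whole kidneys. Foxd1 is a gene of renal stromal progenitors and Ptch1 encodes the Hedgehog receptor that holds the pathway off, so the comparison asks how the kidney differs when Ptch1 is lost in the Foxd1 lineage. Foxd1Cre and the null allele, which every mutant cell carries, cannot be told apart from that loss.

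Basement membranes are thin sheets under epithelia and around vessels and muscle. Laminins are heterotrimers of 1 alpha, 1 beta and 1 gamma chain that polymerise at the cell surface, nidogens and perlecan (Hspg2) bridge them to collagen IV, and agrin (Agrn) links them to receptors. Integrins are heterodimers of 1 alpha and 1 beta subunit that bind laminins, collagens or ligands with an RGD motif such as fibronectin (Fn1) and nephronectin (Npnt). In the developing mouse kidney, nephronectin on the ureteric bud is bound by integrin alpha8 beta1 on the mesenchyme, and the Fraser complex (Fras1, Frem1 and Frem2) helps to hold nephronectin in the bud's basement membrane.

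The libraries held 13261588 (mutant 2) to 47847925 (mutant 3) reads. Ptch1 was at 23.5, 35.8 and 29.8 FPKM (fragments or reads per kilobase of gene and per unit of library depth) in mutants 1 to 3 and 8.26, 7.91 and 7.6 FPKM in controls 1 to 3, a value over the whole gene that does not check the deletion. One library stood apart. Control 2 had a first principal component coordinate of -75.8, against -8.49 to 24.6 for the remaining 5, on an axis holding 39.4% of the variance. Most stromal markers were low in it. The summed level of 9 listed stromal genes was 796 to 1648 FPKM in mutants, and 788, 289 and 926 FPKM in controls 1 to 3. Col1a1 and Col3a1 were the largest parts of this sum. Penk was higher in control 2 (41.1 FPKM) than in controls 1 and 3 (18 and 32 FPKM). For Dcn, control 2 lay between the other controls. Foxd1 and Ntn1 were lower in every mutant than in controls 1 and 3, unlike the sum. The X-linked RNA Xist was at 22581 to 30867 normalized counts in controls 1 and 3, at 20 in control 2 and at 43.4 to 2620 in the mutants, so sex was not balanced between the groups either. The Y-linked gene Ddx3y was at 1525 to 1774 normalized counts in mutants and 1948 in control 2, but at 6.55 and 1.94 in controls 1 and 3. Results that rest on control 2 are given with and without it. Without it, genotype cannot be told apart from this difference in sex-linked genes. Nephron progenitor markers, which show that the tissue is kidney, summed to 343 to 387 FPKM in mutants and 309 to 445 FPKM in controls.

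Laminin gamma3, laminin alpha1 and, by less, integrin alpha6 messenger RNA levels were above every control in all 3 mutants, while the nephronectin receptor and Fraser complex genes overlapped between the groups. These differences did not pass correction: none of the 38 genes passed the test over all genes, which was limma on log2(normalized count + 1) with a Benjamini-Hochberg adjusted p under 0.05. Adjusted p over the 38 ran from 0.119 to 0.985. Over all 16933 genes tested, 37 (0.219%) were called higher in mutants and 15 lower. At an unadjusted p under 0.05, 4 of the 38 were higher in mutants (Lama1, Lamc3, Itga6 and Itgb5) and 0 lower, where 5.26% of all genes were higher at that level. In the authors' deposited table, 13 of the 38 were called higher and 0 lower, where it called 3.07% of the genes with an adjusted p higher. All mutants exceeded all controls for 6 of the 38, namely Lamc3, Lama1, Itga6, Itgb7, Lama3 and Lamb1, and for 7.57% of all genes tested. Of the 38, 32 had a positive log2 fold change, with a median of 0.40, against a median of -0.01 over all genes tested. Without control 2 the median was 0.23, and 30 of the 38 were positive.

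**Figure D1:**
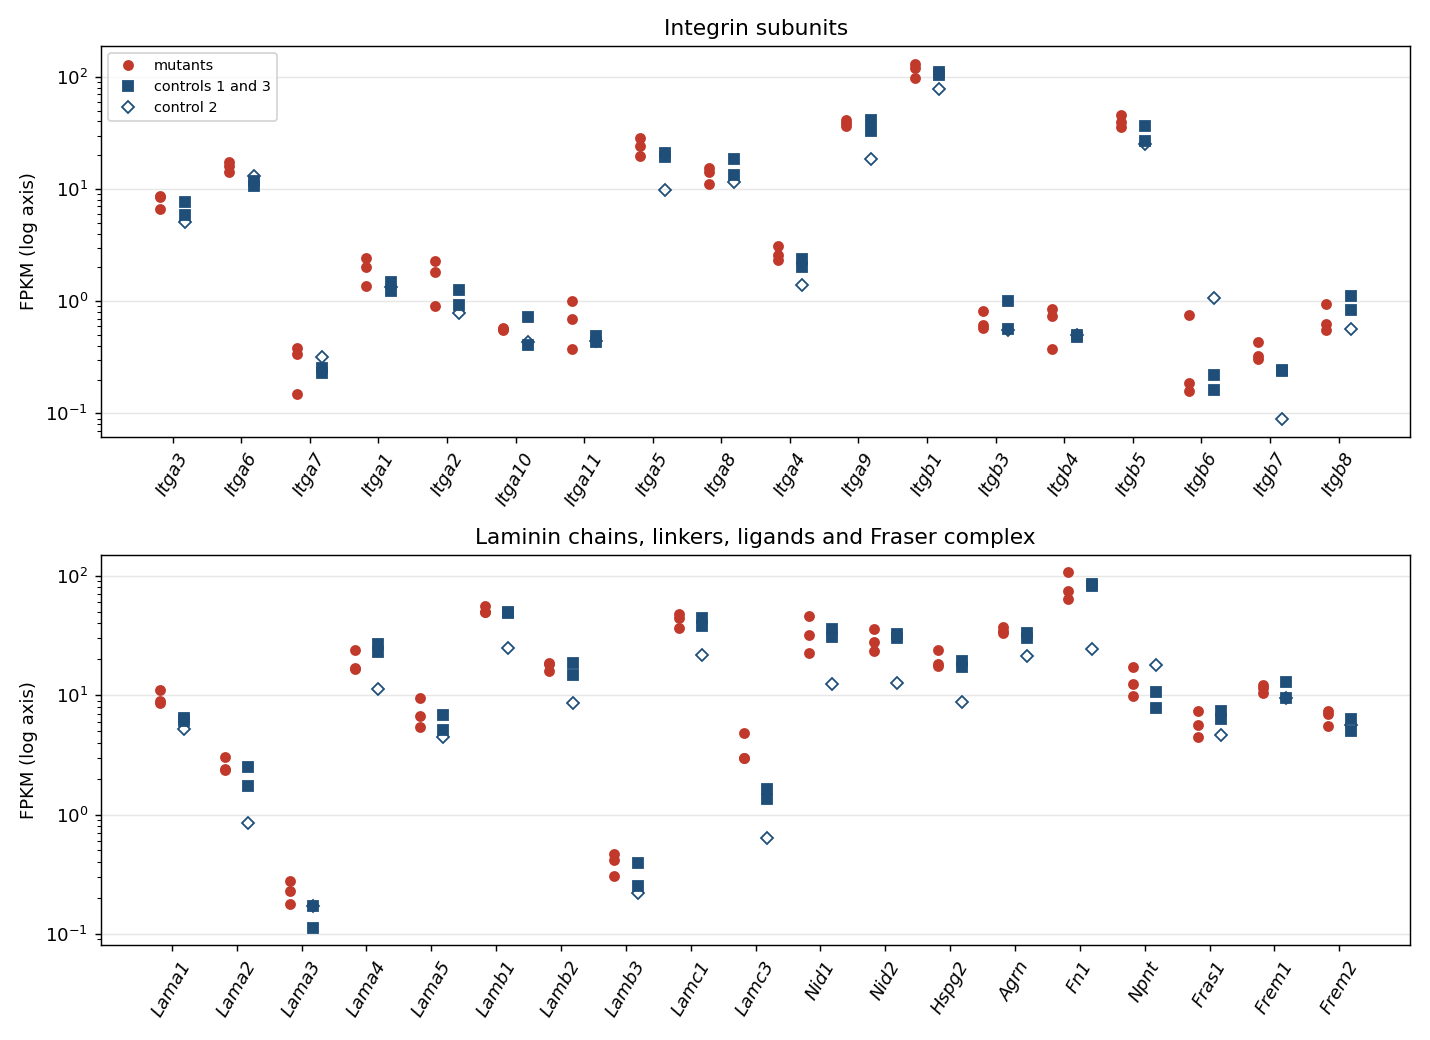
FPKM on a log axis of 37 of the 38 genes in every library, with mutants as circles left of controls (filled squares for controls 1 and 3, an open diamond for control 2). The circles of Lamc3 and Lama1 all lie above their controls, and the open diamond lies below the other controls for 27 of the 38 genes.

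Levels spanned more than 2 orders of magnitude across the set. The beta1 subunit Itgb1, the common partner of most alpha subunits, was the most abundant integrin at 116 ± 17.2 FPKM in mutants and 97.2 ± 16.8 FPKM in controls (SD, n = 3 each, as for all values written in this way). Fibronectin was next in the set, at 81.8 ± 22.8 FPKM in mutants and 64.2 ± 34.3 FPKM in controls. For Fn1 the SD within either group was larger than the difference between the means, and for Itgb1 the groups overlapped. At the low end, 10 genes averaged under 1 FPKM. Among these were Itga7, Itgb6, Itgb7, Lama3 and Lamb3, each with an average of fewer than 50 normalized counts, so that counting error weighs most on them. Itgb7, for example, was read 11 to 55 times in mutant libraries and 6 to 16 times in control libraries.

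Lamc3 differed most among the laminin chains described here. Lamc3 (chromosome 2, 31887291 to 31946539, GRCm38) encodes gamma3 and was much scarcer than Lamc1 in these kidneys. It was at 4.87, 2.99 and 2.95 FPKM in mutants 1 to 3, against 1.36, 0.639 and 1.64 FPKM in controls 1 to 3. The lowest mutant was well above the highest control. Its log2 fold change was 1.63 (SE 0.36, adjusted p = 0.15 in limma) and the authors' deposited table gave 1.81 with an adjusted p of 0.000132. Without control 2 the log2 fold change was 1.23 and the limma adjusted p 0.0534. Library quality weights were 0.537, 1.57 and 1.84 for mutants 1 to 3 and 0.671, 0.313 and 3.07 for controls 1 to 3, so that control 3 carried most of the control side. With these weights the log2 fold change was 1.10, and Lamc3 passed (adjusted p = 0.0384 in limma). The weighted fit, also used below, called 462 of the 16933 genes tested, against 52 in the main fit.

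Lamc1 encodes gamma1, the chain of most laminins. It was at 44.4, 36.7 and 47.5 FPKM in mutants, against 44.2, 21.7 and 38.3 FPKM in controls. Control 2 was the only library below 36 FPKM, and the log2 fold change of 0.36 (adjusted p = 0.626 in limma) became 0.05 without it.

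Among the alpha chains, which set the receptor binding of a laminin, Lama1 stood out. Lama1 (chromosome 17, 67697259 to 67822647, GRCm38) encodes alpha1, the alpha chain of the earliest embryonic laminin. It was at 11, 8.61 and 9.03 FPKM in mutants and 6.43, 5.19 and 6.10 FPKM in controls. All mutants were above all controls, and control 2 lay close to the other controls. The log2 fold change was 0.69 (SE 0.14, adjusted p = 0.119 in limma), and 0.60 without control 2 (adjusted p = 0.102 in limma). Library quality weights gave 0.58 and a limma adjusted p of 0.0165, and the authors' deposited table had an adjusted p of 0.00648.

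Lama4, the alpha4 chain of vessel and stromal laminins, was the most abundant alpha chain. It was at 17.0, 16.6 and 24.1 FPKM in mutants, against 23.2, 11.2 and 27.1 FPKM in controls. Its log2 fold change was -0.02 (SE 0.31, adjusted p = 0.985 in limma) with all libraries. Without control 2 it was -0.41 (SE 0.18, unadjusted p = 0.0475 and adjusted p = 0.491 in limma), which did not pass the test. Lama4 made up 42.4% to 55.8% of the summed alpha chain FPKM in mutants, and 60.5%, 51.2% and 66.2% in controls 1 to 3. The share of Lama1 was 20.9% to 27.4% in mutants, and 16.7%, 23.7% and 14.9% in controls 1 to 3. For both shares it was control 2 that overlapped the mutants.

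**Figure D2:**
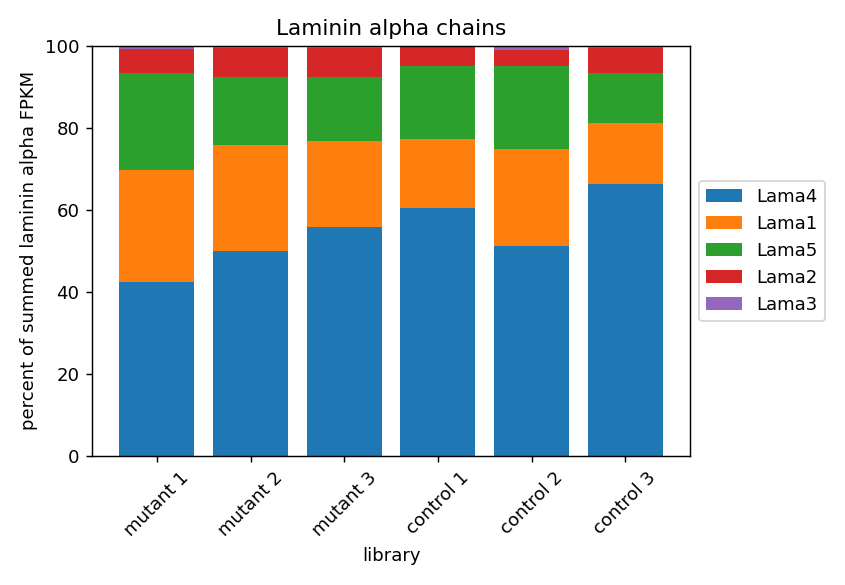
Stacked bars give each chain's percent of the summed FPKM of the 5 laminin alpha chains in each library, mutants before controls. Lama4 takes 42.4% to 55.8% in mutants and 60.5%, 51.2% and 66.2% in controls 1 to 3, and Lama1 takes 20.9% to 27.4% in mutants and 16.7%, 23.7% and 14.9% in controls 1 to 3.

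Lama5 encodes alpha5, which replaces alpha1 as basement membranes mature. It was at 9.47, 5.43 and 6.74 FPKM in mutants and 6.89, 4.44 and 5.09 FPKM in controls, with overlapping groups (log2 fold change 0.38, SE 0.23, adjusted p = 0.59 in limma, and 0.25 without control 2). Lama2, best known from muscle and peripheral nerve, was at 2.39, 2.37 and 3.06 FPKM in mutants and 1.72, 0.855 and 2.5 FPKM in controls. Its log2 fold change of 0.75 (adjusted p = 0.536 in limma) was 0.32 without control 2. Skeletal muscle markers ran the other way, with 5 of the 7 tested called lower and sums of 7.39 to 9.91 FPKM in mutants and 28.7 to 49.5 FPKM in controls, with Ckm at 0 in a library. Smooth muscle markers summed to 174 to 230 FPKM in mutants and 111 to 136 FPKM in controls. Of the 7, 6 had a positive log2 fold change and 0 were called in limma. Des had a log2 fold change of -0.02, and Acta2, Actg2 and Myh11 were higher in control 2 than in mutant 2. The part of either tissue in Lama2 was not tested. Lama3 was at 0.229, 0.177 and 0.280 FPKM in mutants and 0.113, 0.170 and 0.170 FPKM in controls. All mutants were above all controls, with a log2 fold change of 0.59 (SE 0.31, adjusted p = 0.566 in limma). These values rest on few reads, 25 to 141 in mutants and 26 to 45 in controls before scaling for depth.

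Lamb1 and Lamb2 had a like pattern over the libraries. Lamb1, which pairs with gamma1 in most embryonic laminins, was at 49.9, 49.8 and 55.9 FPKM in mutants, against 49.8, 25.0 and 48.7 FPKM in controls. The groups were separated only in the decimals, and control 2 was the only library below 48 FPKM. Lamb2, the beta chain of the mature glomerular basement membrane, was at 18.2, 16.0 and 18.7 FPKM in mutants and 18.6, 8.66 and 14.8 FPKM in controls. The ratio of control 2 to the mean of the other controls was 0.508 for Lamb1 and 0.519 for Lamb2. The share of Lamb1 in the summed beta chain FPKM was 72.8% to 75.3% in mutants and 72.5% to 76.2% in controls. Log2 fold changes of 0.40 for Lamb1 and 0.40 for Lamb2 (adjusted p = 0.605 for both in limma) became 0.07 and 0.09 without control 2. The authors' deposited table called both higher (adjusted p = 0.0357 and 0.0195). Lamb3 was at 0.396 ± 0.0818 FPKM in mutants and 0.289 ± 0.0912 FPKM in controls, with overlapping groups.

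The linkers followed the beta chains. Nid1 (entactin) was at 22.6, 31.9 and 45.9 FPKM in mutants, against 30.6, 12.4 and 35.6 FPKM in controls. Mutant 1 lay below controls 1 and 3, and control 2 was lowest. The log2 fold change of 0.43 (SE 0.40, adjusted p = 0.69 in limma) was -0.04 without control 2. Hspg2 was at 18.1, 17.5 and 24.0 FPKM in mutants and 19.3, 8.80 and 17.3 FPKM in controls, a log2 fold change of 0.46 (adjusted p = 0.603 in limma), or 0.11 without control 2. Nid2, the paralogue of Nid1, was at 23.4, 27.8 and 36.1 FPKM in mutants and 30.0, 12.6 and 32.4 FPKM in controls (log2 fold change 0.31, adjusted p = 0.732 in limma, and -0.12 without control 2). Agrn varied least of these 4, at 34.3, 33.1 and 37.2 FPKM in mutants and 33.5, 21.4 and 30.0 FPKM in controls (log2 fold change 0.33, SE 0.17, adjusted p = 0.566 in limma, and 0.14 without control 2). All 4 were lowest in control 2 and highest in mutant 3.

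The upstream sequences of 4 of these genes are shown as examples of genes low in control 2, at 0.375 (Nid1) to 0.519 (Lamb2) of the mean of the other controls. That range does not set the 4 apart. Other genes of the set were as low or lower there, among them Fn1 (0.293), Nid2 (0.405) and Lama2 (0.405). Each line holds the 250 bases before the RefSeq start on the gene's own strand (GRCm38.p6), and capitals mark GC boxes, the letters GGGCGG or their reverse complement. The windows are chr12:31265043-31265292 (Lamb1), chr9:108479612-108479861 (Lamb2), chr13:13437352-13437601 (Nid1) and chr4:137468553-137468802 (Hspg2), all on the plus strand.
Lamb1: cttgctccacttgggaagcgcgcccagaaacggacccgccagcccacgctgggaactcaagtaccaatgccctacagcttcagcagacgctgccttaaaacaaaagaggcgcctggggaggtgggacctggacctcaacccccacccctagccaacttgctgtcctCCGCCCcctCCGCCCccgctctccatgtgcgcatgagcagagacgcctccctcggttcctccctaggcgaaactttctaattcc
Lamb2: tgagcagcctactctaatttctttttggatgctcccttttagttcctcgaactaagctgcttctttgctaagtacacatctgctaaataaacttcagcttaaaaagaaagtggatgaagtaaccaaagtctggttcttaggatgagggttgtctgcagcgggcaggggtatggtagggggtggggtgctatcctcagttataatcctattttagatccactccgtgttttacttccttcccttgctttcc
Nid1: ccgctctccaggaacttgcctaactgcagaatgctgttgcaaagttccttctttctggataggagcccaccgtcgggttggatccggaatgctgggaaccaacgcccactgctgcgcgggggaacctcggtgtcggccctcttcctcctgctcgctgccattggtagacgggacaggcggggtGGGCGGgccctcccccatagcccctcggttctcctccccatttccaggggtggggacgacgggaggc
Hspg2: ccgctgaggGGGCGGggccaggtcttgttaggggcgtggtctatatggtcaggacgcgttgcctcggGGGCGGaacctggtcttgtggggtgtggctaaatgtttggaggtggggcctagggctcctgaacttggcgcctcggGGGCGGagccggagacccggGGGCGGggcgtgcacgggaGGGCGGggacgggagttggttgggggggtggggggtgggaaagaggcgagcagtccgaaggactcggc
GC boxes numbered 2 in the Lamb1 window, 0 in Lamb2, 1 in Nid1 and 5 in Hspg2, so these letters are not shared by the 4. The G and C content was 62.0%, 43.6%, 64.4% and 70.0% in the same order. Of the 38 genes, 25 had a window in the RefSeq table, 31 windows in all with alternative starts. A GC box stood in 13 of the 31 (41.9%), and in 32.7% of all 32851 windows. The Gli consensus GACCACCCA, the binding motif of the Hedgehog pathway's transcription factors, was searched on both strands and stood in 0 of the 31 windows and in 0.225% of all windows. Neither the TATA letters TATAAA (12.4% of all windows) nor the AP-1 letters TGANTCA (6.75%) occurred in the 31, and none of these searches says anything of sites outside the windows.

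The genes of the nephronectin axis, on which the first outgrowth of the ureteric bud depends in mice, overlapped between the groups. Itga8 (chromosome 2, 12106632 to 12301922, GRCm38) was at 14.1, 11.2 and 15.4 FPKM in mutants, against 18.7, 11.6 and 13.4 FPKM in controls. The groups overlapped, with a log2 fold change of -0.09 (SE 0.20, adjusted p = 0.878 in limma), or -0.24 without control 2. Its ligand Npnt was at 17.3, 9.84 and 12.5 FPKM in mutants and 10.6, 17.8 and 7.87 FPKM in controls. Mutant 1 and control 2 were the high libraries, and the log2 fold change was 0.17 (SE 0.31, adjusted p = 0.84 in limma), or 0.49 (adjusted p = 0.528 in limma) without control 2. Itgb1, the partner of Itga8, was at 97.6, 121 and 131 FPKM in mutants and 103, 78.3 and 111 FPKM in controls (log2 fold change 0.26, SE 0.18, adjusted p = 0.616 in limma, and 0.12 without control 2). The level of Itgb1 over the summed level of the 11 alpha subunits was 0.944 to 1.19 in mutants and 0.960 to 1.26 in controls.

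The Fraser complex genes, whose loss in mice can leave the embryo without kidneys, also showed overlapping groups. Fras1 was at 5.60, 4.44 and 7.39 FPKM in mutants and 7.39, 4.67 and 6.34 FPKM in controls (log2 fold change -0.08, SE 0.22, adjusted p = 0.901 in limma, and -0.27 without control 2). Frem1 was at 10.4, 12.2 and 11.5 FPKM in mutants and 13.0, 9.53 and 9.55 FPKM in controls (log2 fold change 0.10, SE 0.15, adjusted p = 0.818 in limma, and 0.02 without control 2). Frem2 was at 6.96, 5.51 and 7.39 FPKM in mutants and 6.35, 5.64 and 5.02 FPKM in controls (log2 fold change 0.22, SE 0.15, adjusted p = 0.622 in limma). None of the 3 was called in the authors' deposited table.

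Of the laminin-binding alpha subunits, Itga6 had the clearest difference. Itga6 (chromosome 2, 71745616 to 71858416, GRCm38) is found on epithelia and endothelium. It was at 14.3, 16.2 and 17.5 FPKM in mutants and 11.9, 13.2 and 10.7 FPKM in controls, with no overlap. Control 2 was the highest control, unlike for most of the set. The log2 fold change was 0.43 (SE 0.13, adjusted p = 0.37 in limma) with all libraries and 0.50 (adjusted p = 0.171 in limma) without control 2. With library quality weights it was 0.58 and passed (adjusted p = 0.0177 in limma), while the authors' deposited table had an adjusted p of 0.251. The summed level of 12 listed endothelial markers was 298 to 356 FPKM in mutants and 165 to 171 FPKM in controls. All 12 were positive and 4 were called higher in limma. The part of the endothelium in the Itga6 difference was not tested, and in whole kidneys more cells of a type and more RNA per cell cannot be told apart.

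Itga3, the partner of beta1 on podocytes and ureteric epithelium, was at 8.74, 6.67 and 8.55 FPKM in mutants and 7.69, 5.08 and 5.82 FPKM in controls (log2 fold change 0.38, SE 0.19, adjusted p = 0.546 in limma, and 0.25 without control 2). Itga7, a muscle integrin, was at 0.291 ± 0.125 FPKM in mutants and 0.266 ± 0.0462 FPKM in controls. The beta4 subunit Itgb4, which pairs with alpha6 in hemidesmosomes, was at 0.851, 0.373 and 0.744 FPKM in mutants and 0.480, 0.495 and 0.498 FPKM in controls. It was thus far scarcer than Itga6, and its log2 fold change was 0.33 (SE 0.33, adjusted p = 0.709 in limma). Podocyte markers summed to 65.6 to 72.3 FPKM in mutants, and to 73.2, 107 and 83.3 FPKM in controls 1 to 3. Of the 6 tested, 4 were positive, with a median log2 fold change of 0.29, or 0.58 without control 2, so the sum and most single markers differed in direction. Their part in the Itga3 values was not tested.

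**Figure D3:**
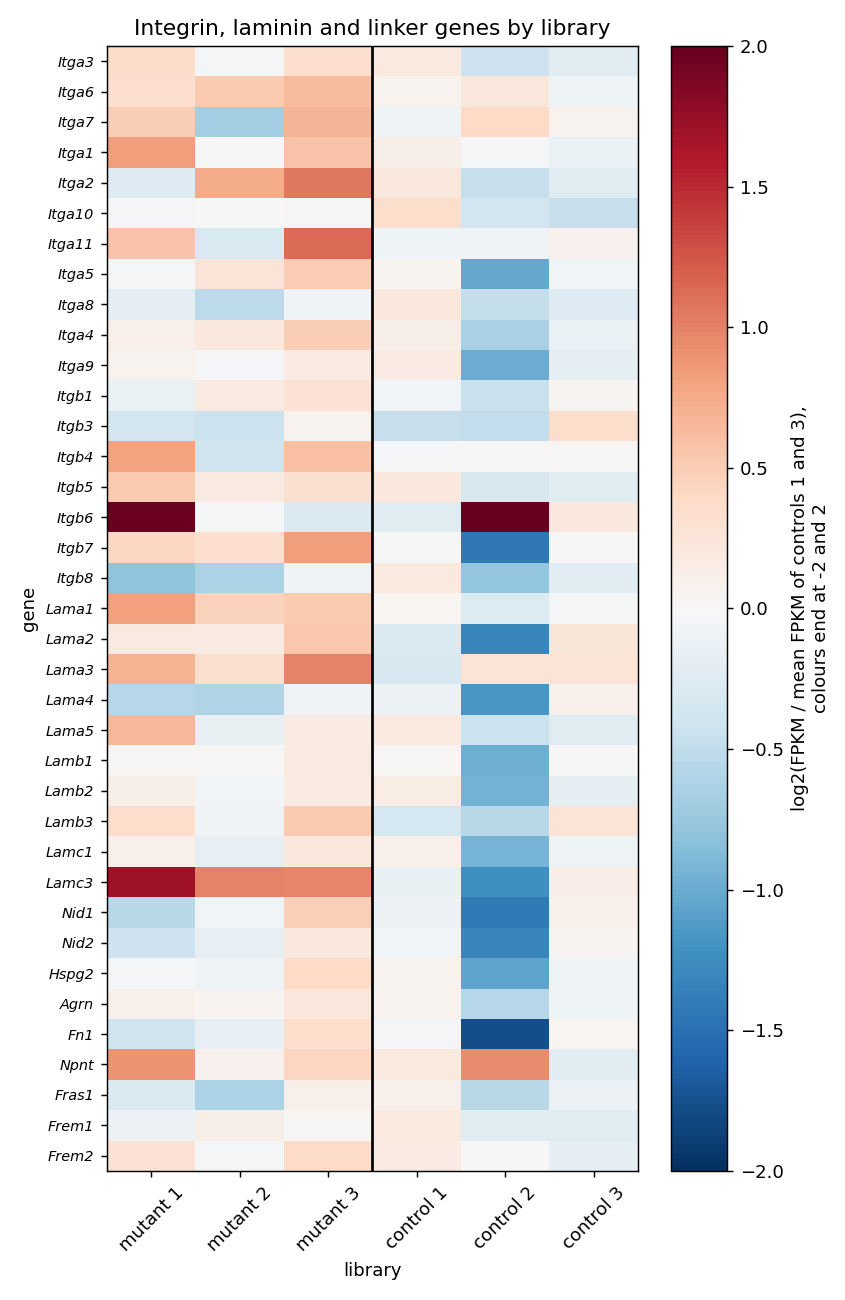
Colours give, for 37 of the 38 genes, log2 of each gene's FPKM over its mean in controls 1 and 3, by library, with genes in rows ordered by role and the colour scale ending at -2 and 2. Control 2 is blue for most rows, deepest for Fn1 at 24.6 FPKM, and strongly red for Itgb6 and Npnt.

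Fibronectin and its receptor subunits carried the pattern of control 2. Fn1 was at 63.6, 74.6 and 107 FPKM in mutants, against 81.8, 24.6 and 86.1 FPKM in controls, so that control 2 held 0.293 of the mean of the other controls. Its log2 fold change was 0.52 (SE 0.45, adjusted p = 0.672 in limma) and -0.07 (SE 0.22) without control 2. Itga5, the fibronectin receptor subunit, was at 19.8, 24.0 and 28.6 FPKM in mutants, against 20.8, 9.84 and 19.4 FPKM in controls. Its log2 fold change was 0.59 (SE 0.28, adjusted p = 0.541 in limma), or 0.25 without control 2. Itga9, whose ligands include tenascin, was at 39.1, 36.7 and 41.5 FPKM in mutants and 41.5, 18.6 and 33.0 FPKM in controls (log2 fold change 0.41, adjusted p = 0.61 in limma, and 0.08 without control 2). Itga4, which binds fibronectin and VCAM-1 and is also found on leukocytes, was at 2.35, 2.56 and 3.11 FPKM in mutants and 2.39, 1.40 and 2.01 FPKM in controls (log2 fold change 0.49, adjusted p = 0.519 in limma, and 0.27 without control 2). The authors' deposited table called these 4 genes higher, with adjusted p of 0.00233 (Fn1), 0.00114 (Itga5), 0.00992 (Itga9) and 0.0309 (Itga4).

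The beta5 subunit Itgb5, which pairs with alphaV and binds vitronectin, held more of its difference. It was at 45.4, 35.5 and 39.4 FPKM in mutants and 36.4, 25.3 and 26.7 FPKM in controls. Mutant 2 was just below control 1 and the other mutants were above all controls. The log2 fold change was 0.46 (SE 0.17, adjusted p = 0.453 in limma), and 0.36 (SE 0.17, adjusted p = 0.53 in limma) without control 2. The authors' deposited table had an adjusted p of 0.0239.

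The beta subunits beta3, beta6, beta7 and beta8 were all scarce. Itgb8, an activator of latent TGF-beta, was at 0.559, 0.632 and 0.936 FPKM in mutants and 1.12, 0.565 and 0.838 FPKM in controls (log2 fold change -0.23, SE 0.30, adjusted p = 0.786 in limma, and -0.48 without control 2). Itgb3, the beta subunit of the platelet and vitronectin integrins, was at 0.614, 0.582 and 0.824 FPKM in mutants and 0.570, 0.559 and 1.01 FPKM in controls (log2 fold change -0.04, and -0.19 without control 2). Control 3 was the highest library for it, and the groups overlapped. Itgb6, an epithelial activator of latent TGF-beta, was at 0.749, 0.187 and 0.157 FPKM in mutants and 0.162, 1.07 and 0.220 FPKM in controls. Mutant 1 and control 2 stood several-fold above the remaining 4 libraries, and its log2 fold change of -0.26 had an SE of 0.79 and was 0.55 without control 2. The libraries that were high for Itgb6 and Npnt, mutant 1 and control 2, also had the highest summed ureteric epithelium markers. The sum was 334, 196 and 181 FPKM in mutants 1 to 3 and 153, 259 and 137 FPKM in controls 1 to 3. Upk3a was at 0 in mutant 2. Single markers were not alike. In control 2, Calb1, Krt8, Krt18, Hoxb7 and Wnt9b were above mutants 2 and 3 and the other controls. Gata3 and Cdh1 were below every mutant there, and Wnt11 was at its lowest of all libraries (14.7 FPKM). The part of ureteric epithelium in the Itgb6 and Npnt values was not tested. Itgb7, which homes lymphocytes to mucosa with alpha4, was at 0.324, 0.307 and 0.430 FPKM in mutants and 0.240, 0.0895 and 0.244 FPKM in controls. All mutants were above all controls, with a log2 fold change of 0.94 (SE 0.46, adjusted p = 0.549 in limma), or 0.51 without control 2. Leukocyte markers summed to 28.6 to 43.8 FPKM in mutants and 20.9 to 25.5 FPKM in controls, with none of the 12 at 0. Of the 11 tested, 11 had a positive log2 fold change and 0 were called in limma. Ptprc was highest in control 2 and Cd68 in control 1, and Aif1 in control 2 was above mutants 2 and 3. The part of leukocytes in the Itgb7 values was not tested either.

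The collagen-binding alpha subunits were low. Itga1, found on vessels and smooth muscle, was at 2.44, 1.36 and 2.02 FPKM in mutants and 1.48, 1.33 and 1.24 FPKM in controls (log2 fold change 0.48, SE 0.22, adjusted p = 0.533 in limma). Itga2 was at 0.910, 1.82 and 2.27 FPKM in mutants and 1.26, 0.791 and 0.922 FPKM in controls (log2 fold change 0.67, SE 0.34, adjusted p = 0.555 in limma). The groups overlapped for both. Itga10 and Itga11, known from cartilage and from fibroblasts, averaged 0.562 and 0.691 FPKM in mutants and 0.521 and 0.455 FPKM in controls.

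**Figure D4:**
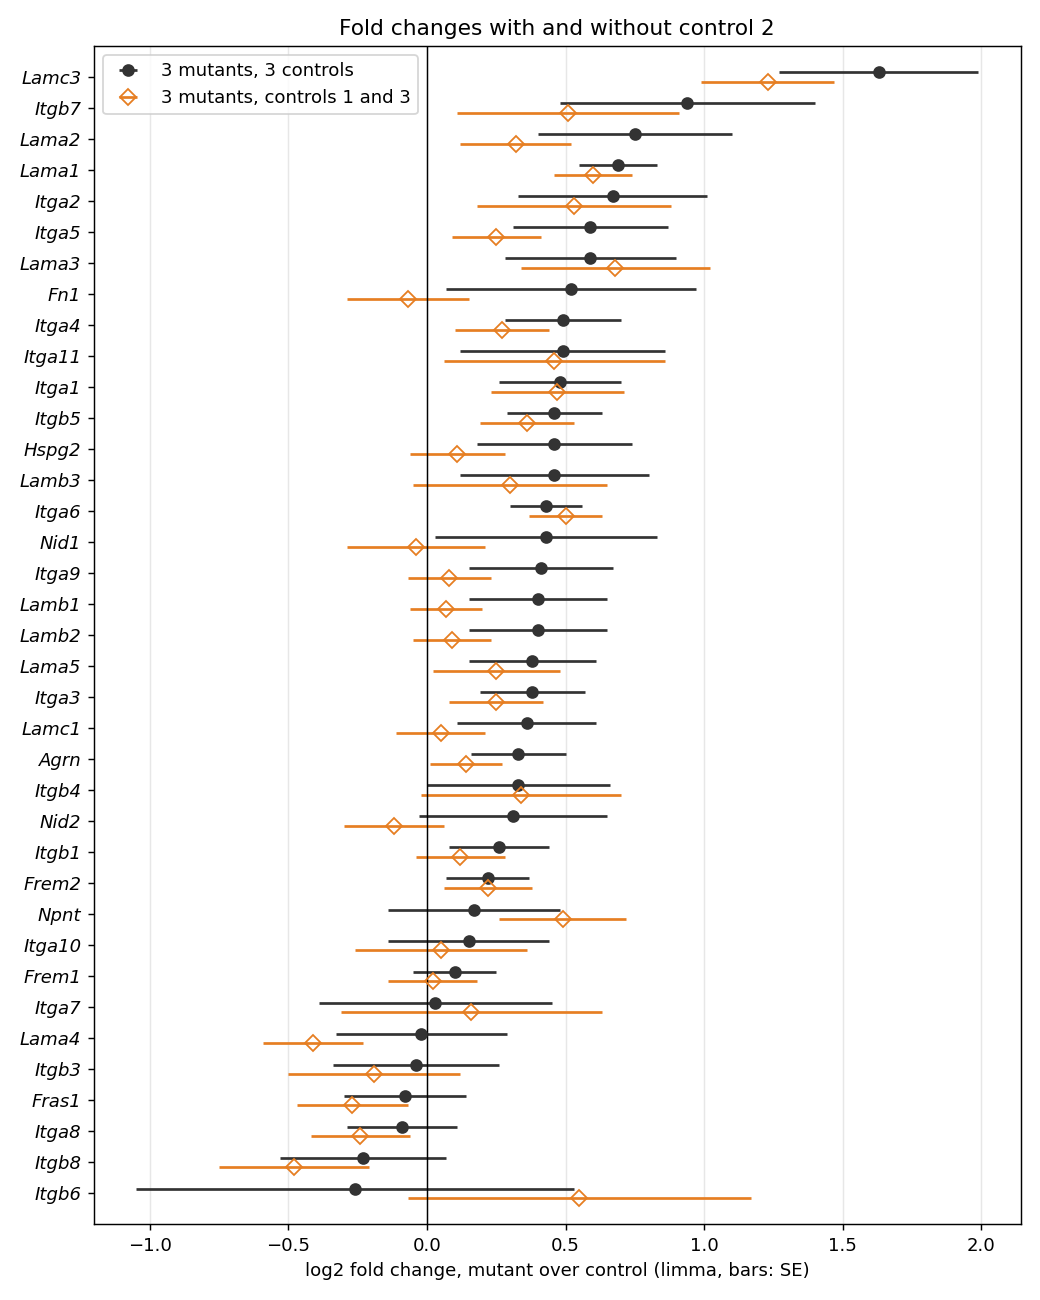
Limma log2 fold changes of 37 of the 38 genes, mutant over control, with standard errors as bars, for all 6 libraries (filled circles, which set the order of the genes) and without control 2 (open diamonds). Lamc3, Lama1 and Itga6 stay above 0.4 in both fits, as do Itgb7, Itga2, Lama3, Itga11 and Itga1. Fn1, Nid1 and Nid2 lie at 0.31 to 0.52 with control 2 and at -0.12 to -0.04 without it.

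All 13 genes that the authors' deposited table called higher had their lowest value of the 6 libraries in control 2, as did 24 of the 38 and 28.0% of all genes tested. For 7 of the 13 the limma log2 fold change was below 0.15 without control 2, and the median over the 13 was 0.46 with control 2 and 0.11 without it. The deposited fold changes were compared with the libraries themselves. Over 9081 genes with at least 300 normalized counts in every library, a linear combination of the 6 log2 values matched the deposited log2 fold change with a correlation across genes of 0.9994. The weights were 0.286, 0.279 and 0.436 for mutants 1 to 3, and 0.005, -0.566 and -0.439 for controls 1 to 3, where a plain comparison of the groups would give equal weights within a group. Control 1 thus hardly entered the deposited fold changes and control 2 entered them most. Genes called higher from them were therefore picked in part for low values in control 2. The low values of the 13 there, and their smaller fold changes without it, follow in part from that choice. The same share among all genes that the authors called higher is not given here. The sources used here do not name a model that gives these weights.

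The genes of the set are long, and 26 of the 38 were among the longest 20% of genes tested. In control 2, the genes of that length as a whole had a median of 0.08 relative to the other controls on the log2 scale, against -0.44 for the 38. Mutant 3, the deepest library, had the highest value of the 6 for 22 of the 38, and for 11.9% of all genes tested. Relative to the other mutants its median was 0.29 for the 38 and 0.15 for the genes of that length. The part of gene length or of depth in these values was not tested. Summed over the 38, the level was 623, 625 and 761 FPKM in mutants 1 to 3 and 640, 375 and 607 FPKM in controls 1 to 3.

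Genes outside the set that act on the same structures were examined in 6 lists holding 70 genes, of which 61 were tested. None of the 61 was called in limma with all libraries. At an unadjusted p under 0.05 there were 12 higher and 1 lower, where 5.26% of all genes tested were higher. The authors' deposited table called 15 higher and 0 lower, where it called 3.07% of the genes with an adjusted p higher. Of the 12, 6 were basement membrane collagens. This list differed most, with a median log2 fold change of 0.85 over 8 genes, or 0.63 without control 2. Over 11 tested genes of other basement membrane proteins the median was 0.40, or -0.03 without control 2. Col4a1, the main collagen IV chain, was at 96.3, 103 and 126 FPKM in mutants, against 70.1, 42.5 and 70.8 FPKM in controls. All mutants were above all controls (log2 fold change 0.86, SE 0.22, adjusted p = 0.249 in limma, and 0.61 without control 2). Col18a1, the source of endostatin, was at 50.4 ± 6.5 FPKM in mutants and 30.3 ± 3.56 FPKM in controls (log2 fold change 0.73, SE 0.14, adjusted p = 0.106 in limma). Col4a4, a chain of the mature glomerular network, was at 0.875 ± 0.0937 FPKM in mutants and 0.290 ± 0.0957 FPKM in controls (adjusted p = 0.0797 in limma, and 0.0246 without control 2).

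The intracellular adaptors of integrins showed no such shift. Over 18 of them, including talin, kindlin, vinculin, Ilk and focal adhesion kinase genes, 11 had positive and 7 negative log2 fold changes, with a median of 0.03. Control 2 was the lowest library for 1 of the 18. Among 11 tested ligands of integrins outside the set, the median was 0.39 with control 2 and 0.10 without it. Madcam1, a vessel adhesion molecule bound by integrin alpha4 beta7, was at 3.49, 5.62 and 5.14 FPKM in mutants and 1.18, 0.667 and 1.73 FPKM in controls. Its log2 fold change was 2.04 (SE 0.37, adjusted p = 0.0885 in limma), and 1.68 (adjusted p = 0.0401 in limma) without control 2. Icam1, an endothelial and leukocyte adhesion molecule, was at 4.84 ± 1.00 FPKM in mutants and 2.26 ± 0.420 FPKM in controls (log2 fold change 1.09, adjusted p = 0.126 in limma). The alphaV subunit Itgav, which the symbol rule leaves out, was at 15.1, 17.5 and 17.7 FPKM in mutants and 17.8, 9.74 and 14.4 FPKM in controls (log2 fold change 0.30, adjusted p = 0.622 in limma, and 0.06 without control 2).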

How the data were processed

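The deposited table gives 1 value per gene and library. Its library columns were taken from the values as FPKM made by the authors, since the header names no unit. It also holds the authors' mean normalized signal, log2 fold change with its standard error, Wald score, p-value and adjusted p-value, per the file headers. Trim Galore, STAR 2.6.0c, HTSeq 0.6.1p2, DESeq2 and mm10 are named in the submitters' processing notes, with no role or order. The sources used here do not say whether counting used strand. Without it, overlapping genes on opposite strands cannot be told apart.

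FPKM times a gene's deposited mean signal over its mean FPKM gave normalized counts. All 134364 values (100%) were whole reads with a tolerance of 0.0001, after division by the size of 1 read in that library. One read was worth 0.498 (mutant 3) to 1.78 (mutant 2) normalized counts. Genes were tested if 3 or more libraries reached 10 normalized counts, which kept 16933. The test was limma 3.58.1 (R 4.3.3, trended variance) on log2(normalized count + 1), a scale on which fold changes of low genes come out too small. The recovered reads were also tested with limma voom, which called 50 genes. The main fit was also run on simulated counts in which no library stood apart, so that run says nothing of control 2. P-values measure the spread between libraries, and pairs of kidneys from 3 mutant mice are stated per the labels.

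Library quality weights came from limma's arrayWeights. The genes, lists and naming rule were chosen with earlier results of these data known. One gene of the set counts in the totals and medians but is not reported here by itself. The others were given by library if called in limma or by the authors, if among the 6 largest positive or 6 largest negative fold changes, or if on a list of 19 genes of the set. Genes outside the set were named where 5 or fewer of their list were called, and those printed were picked after their values were seen. Gene positions are from GENCODE M21 (GRCm38, the same assembly as mm10), and windows before gene starts are from RefSeq.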

Additional observations from a re-analysis of the deposited data

How the results depend on the processing

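The 38 genes were refitted under 15 alternatives, and 27 kept their sign in all of them. The count of members called in limma was 0 with all libraries and 0 in each fit that left out 1 library, 3 with library quality weights (Lama1, Itga6 and Lamc3), and 13 in the authors' deposited table. Genes called over all genes numbered 52, against 462 with library weights and 9 to 158 when 1 library was left out. The highest count was without control 2. The replicate block gave 17 genes and 0 members. Deviations from the group means correlated at 0.000811, -0.0981 and 0.309 between same-numbered libraries. Between mutants and controls of different number they correlated at -0.367 to 0.234. These values do not settle whether the libraries were paired. The median log2 fold change of the 38 was 0.40, and 0.23 (without control 2) to 0.52 (without control 1) when 1 library was left out. Signs changed in 11 genes when 1 library was left out, over ranges of -0.07 to 0.83 (Fn1), -0.27 to 0.10 (Fras1), -0.21 to 0.44 (Itga7), -0.24 to 0.11 (Itga8), -0.19 to 0.23 (Itgb3), -0.95 to 0.55 (Itgb6), -0.48 to 0.01 (Itgb8), -0.41 to 0.23 (Lama4), -0.04 to 0.72 (Nid1), -0.12 to 0.56 (Nid2) and -0.10 to 0.49 (Npnt). Itgb3 was at 0.02 with limma voom on the recovered reads and at 0.01 with upper quartile scaling, and Lama4 at 0.03 with that scaling, which shifted the median of all genes by 0.046. The cause was not tested. In the filter at 1 FPKM, 10 low genes of the set were not tested. Depth limits those genes most.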

Other observations

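Within the basement membrane collagens, Col4a5 and Col4a6 ran against Col4a1 to Col4a4. These neighbours on the X chromosome encode the alpha5 and alpha6 chains of collagen IV. Col4a5 was at 5.31, 5.92 and 8.39 FPKM in mutants 1 to 3, against 13.2, 4.87 and 12.8 FPKM in controls 1 to 3. Col4a6 was at 0.788, 0.787 and 1.32 FPKM in mutants, against 1.80, 0.894 and 2.01 FPKM in controls. For both, controls 1 and 3 were above every mutant and control 2 was among the mutants or below them. Neither was called with all libraries (log2 fold changes -0.54 and -0.66, limma adjusted p = 0.619 and 0.563). Without control 2 both had a log2 fold change of -1.02, with limma adjusted p of 0.0453 and 0.141. Egfl6, an X-linked integrin ligand, had the same order, at 2.21, 3.95 and 6.71 FPKM in mutants and 11.9, 4.13 and 16.2 FPKM in controls (log2 fold change -1.25, limma adjusted p = 0.513). The order was not limited to these X-linked genes. Smoc2, a basement membrane gene, was at 28.7, 32.1 and 41.8 FPKM in mutants and 52, 26.7 and 54.8 FPKM in controls. Its log2 fold change without control 2 was -0.66 (limma adjusted p = 0.133). The stromal markers Foxd1 and Ntn1 had this order too. Controls 1 and 3 are the libraries with high Xist, and control 2 is also the library where most stromal markers were low. The part of either in these values was not tested. These genes were picked after their values were seen.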
